A study of Saccharomyces cerevisiae with 36 samples.

Results

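Alachlor is a chloroacetanilide herbicide that blocks the elongation of very long chain fatty acids in plants, and the question here was which yeast genes changed in 2 h at 200 mg/L, a dose given as its IC20. The comparison rests on 6 of the 36 arrays of the series: the 3 arrays labelled with alachlor and the 3 labelled without it. All cultures were of BY4741, a haploid laboratory strain of Saccharomyces cerevisiae of mating type MATa that carries deletions in HIS3, LEU2, MET17 (also called MET15) and URA3. Both groups were exponential cells in minimal medium, and differed by label in the herbicide alone. Each culture was a biological replicate per the labels, and the series description says that exposed and control cells of a pesticide were run together. A mark (2) closes the titles of the alachlor IC20 arrays, and its meaning is not known here. The other 30 arrays hold S-metolachlor, diuron, MCPA-ME, pyrimethanil and carbofuran, each at its own IC20 with controls of its own, 3 arrays per group.

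As background, yeast meets many lipophilic compounds with the paired regulators Pdr1 and Pdr3, which switch on membrane pumps and genes that remodel membrane lipids. Several other circuits of the cell report on nutrients: Pho4 switches on phosphatases and phosphate carriers when phosphate is short, GATA factors switch on genes for poor nitrogen sources, and Ino2 with Ino4 switch on phospholipid genes when inositol is short. The cell wall has a pathway of its own, in which sensors of the Wsc and Mid families signal through protein kinase C.

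Intensities are the deposited values of the probe sets, with no unit of their own, given as mean ± SD of 3 arrays. Changes are log2 differences, alachlor IC20 minus control, after intensities under 32 were raised to 32. A gene was called when its p-value from limma's moderated test, two-sided, was under 0.05 after Benjamini-Hochberg adjustment over all 5449 genes tested. The medians of the 6 arrays lay between 1446.4 and 1511.4 intensity units, and 90 to 120 genes per array were under the floor. The residual SD on the log2 scale was 0.144 in the alachlor IC20 group and 0.121 in its control, inside the range over the 12 groups (0.103 to 0.350). MATa-specific genes were high on all arrays, with STE2 at 16886 to 18177 intensity units, MFA1 at 16842 to 19240 and MFA2 at 21886 to 24919. MF(ALPHA)1, MET17 and URA3 were under the floor on all 6. The MATalpha-specific genes MF(ALPHA)2 and STE3 were dim but above the floor, at 125 to 208 and 83 to 169. LEU2 read 67.0 to 105.5, but HIS3 read between 7279 and 10262: the sources used here do not place its probes relative to the deleted part, so HIS3 checks nothing.

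With alachlor 192 genes were higher (3.52% of those tested) and 82 were lower (1.50%), together 5.03%. The median change over all genes was 0.00. Most called changes were small: the median was 0.57 among higher genes and -0.50 among lower genes, and 45 higher and 9 lower genes reached a factor of 2. For 1668 genes (30.6%) no alachlor array overlapped a control array, so a gap between the groups of 3 was by itself common. The 6 alachlor arrays alone gave 308 higher (5.65%) and 176 lower genes (3.23%), of which 172 and 61 were among those above. The call counts moved with single arrays: with control array 2 left out 115 were higher and 42 lower. The lower genes numbered 50 when control array 3 was left out, 54 for IC20 array 2 and 42 for IC20 array 3.

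**Figure D1:**
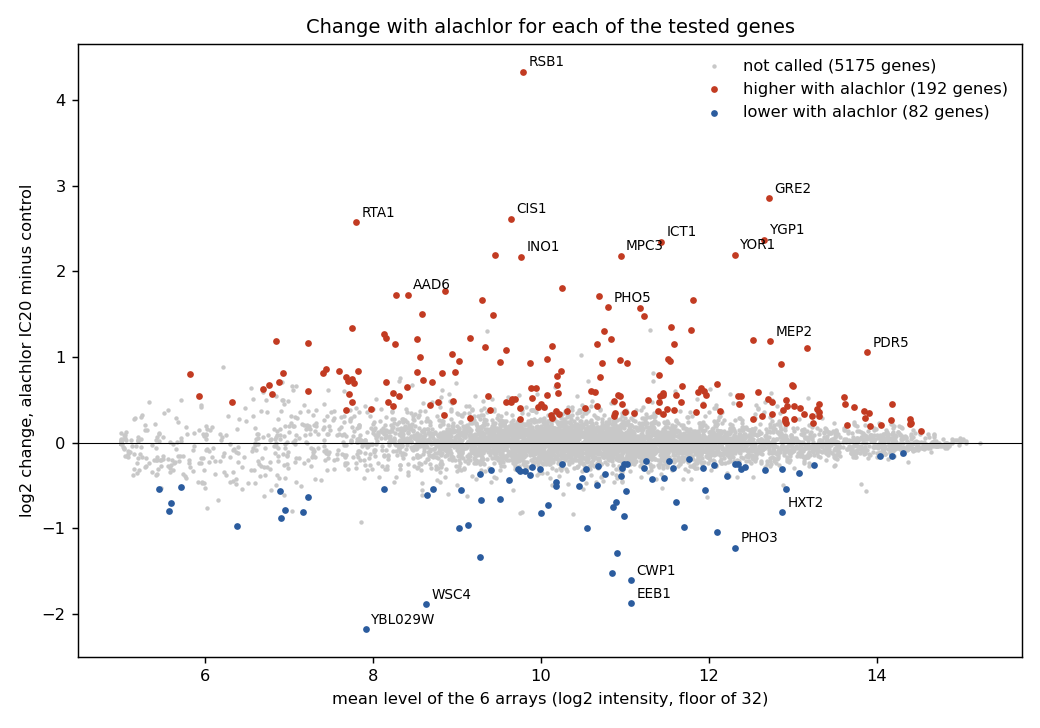
Each point is 1 of the 5449 genes, by its mean level over the 6 alachlor arrays (log2 intensity, horizontal) and its log2 change, alachlor IC20 minus control (vertical). Red points are the 192 genes called higher and blue points the 82 called lower; RSB1 stands highest at 4.33 and YBL029W lowest at -2.18.

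Membrane pumps and lipid-modifying genes of the Pdr1/Pdr3 circuit led the response. Of 18 measured targets 15 were higher (83.3%, against 3.52% over all genes) and none was lower. Their median change was 1.26, against 0.00 over all genes. The largest change of a named gene was in RSB1 (YOR049C), whose membrane protein releases sphingoid long-chain bases: its intensities were 4296, 4005 and 3592 with alachlor, against 180, 206 and 205 in the control. All 3 IC20 values lay far above the controls, by 20.1-fold on the means of logs (log2 change 4.33 ± 0.17 SE, limma adjusted p = 1.63e-16). ICT1, a lysophosphatidic acid acyltransferase gene, stood at 6221 ± 303 with alachlor and 1226 ± 121 without it (5.09-fold). PDR16, a phosphatidylinositol transfer protein gene, was at 5594 ± 344 with alachlor against 2247 ± 90.2 (log2 change 1.31). RTA1, a membrane protein gene tied to resistance to a sterol analogue, was dimmer, at 576, 556 and 495 with alachlor and 102, 78.4 and 93.9 in the control (2.57).

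The ATP-driven pumps were raised to different extents. YOR1, an exporter of organic anions and of oligomycin, read 10536, 10208 and 11889 with alachlor against 2439, 2259 and 2417 in the control, a 4.58-fold difference (log2 change 2.19 ± 0.12 SE, limma adjusted p = 6.53e-13). PDR5, the main drug efflux pump gene of the circuit, was already bright in the control (10469 ± 438) and reached 21770 ± 206 with alachlor, 2.08-fold higher. SNQ2 was higher by 1.10 and PDR10 by 1.21 on the log2 scale, while PDR15 had a change of 0.41 and was not called (limma adjusted p = 0.17). In none of the called pumps did a treated array overlap a control array, but this held for all 192 genes called higher. Among targets of other kinds, CIS1 changed by 2.62 and the polyamine transporter gene TPO1 by 0.66. YGR035C changed by 1.66 but lost its call with all 18 controls of the series as 1 group (limma adjusted p = 0.124). The gene of the regulator Pdr3 itself changed by 0.51 and lost its call in every fit that left out 1 of the 6 arrays, and PDR1 had a change of 0.15 (limma adjusted p = 0.38).

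Of 29 multidrug transporters and regulators outside that circuit 3 were higher, TPO4, QDR3 and FLR1, and 1 was lower. These are 10.3% and 3.45%, against 3.52% and 1.50% over all genes. The higher count was 1 without IC20 array 2, IC20 array 3 or control array 2. The lower gene was PDR12, the pump for weak organic acids: 2240, 2052 and 2855 with alachlor against 4916, 4501 and 4650 in the control (log2 change -0.99, limma adjusted p = 0.00426). The groups did not overlap, but PDR12 lost its call against the 18 controls as 1 group (limma adjusted p = 0.0703). TPO4, another polyamine exporter gene, was at 2881 ± 147 with alachlor and 1516 ± 116 in the control (0.93); its control means elsewhere in the series ran from 947.1 to 7461, and its call was lost against the 18 controls (limma adjusted p = 0.882). QDR3 and FLR1 lost the call in 3 and 5 of the 6 fits that each left out 1 array. YAP1, which regulates FLR1, had a change of 0.15.

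**Figure D2:**
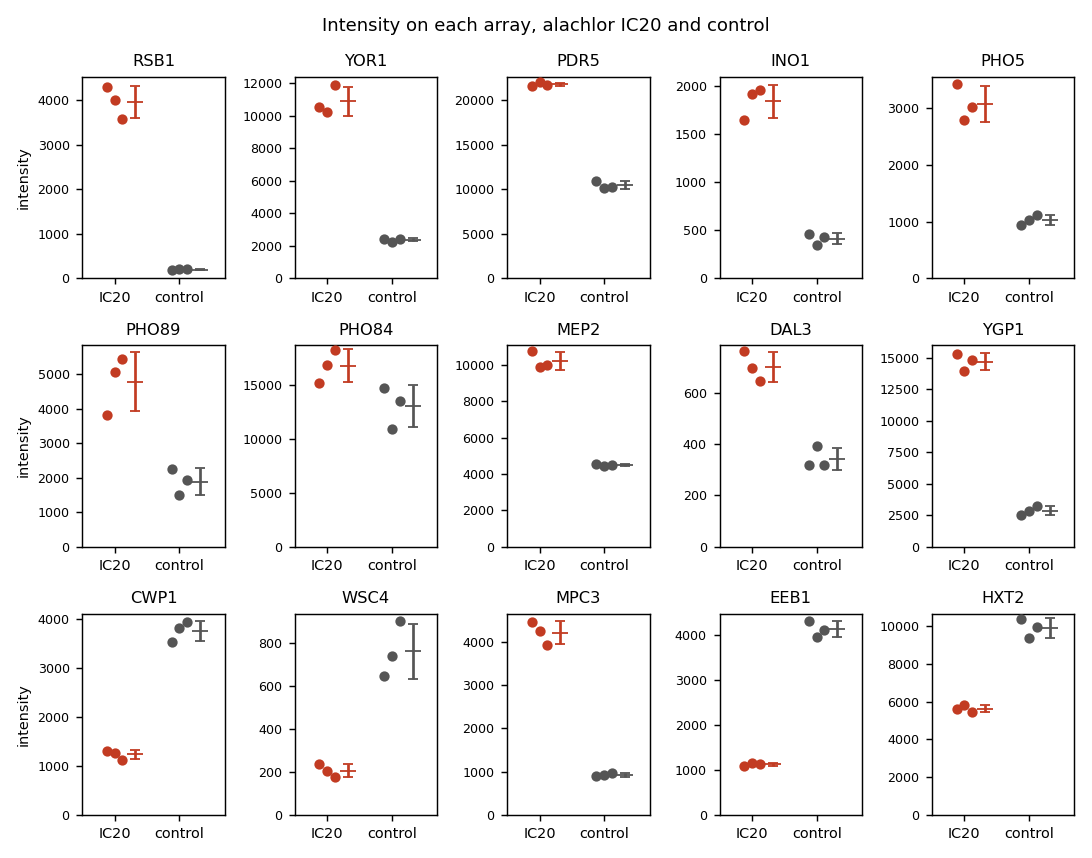
Intensity on each array for 15 genes on linear axes that start at 0; red points are the 3 alachlor IC20 arrays and grey points the 3 controls, with the mean and SD beside them. The groups are apart in all 15 genes, narrowly in PHO84 (lowest IC20 value 15181, highest control value 14684).

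Among inositol-regulated phospholipid genes a single gene was called. INO1, which makes inositol-3-phosphate synthase and is the classic target of Ino2 and Ino4, read 1650, 1921 and 1962 with alachlor against 457, 347 and 430 in the control. The 3 treated values stood above the controls by 4.50-fold (log2 change 2.17 ± 0.26 SE, limma adjusted p = 1.27e-06). It was the only called gene of the 25 measured, whose median change was -0.03. That share of 4% is near the 3.52% higher over all genes. OPI3 and CHO2, the methylation steps to phosphatidylcholine, had changes of 0.22 and 0.12, and CHO1, the phosphatidylserine synthase gene, of -0.12. The regulator genes INO2, INO4 and OPI1 had changes of -0.27, 0.15 and -0.14, none called. Against the 18 controls as 1 group 3 members were higher and 5 lower.

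Of 27 sphingolipid genes 5 were higher (18.5%, against 3.52% over all genes) and none was lower. RSB1 was 1 of the 5, and the list median was 0.03. SUR2, the sphingoid base hydroxylase, was at 8348, 8008 and 7989 with alachlor against 5606, 5913 and 6033 in the control (log2 change 0.47, limma adjusted p = 0.000129; 0.399 against the 18 controls). LAC1, a ceramide synthase gene, differed by 0.39 (11434 ± 161 with alachlor, 8746 ± 308 in the control), and SCS7, which hydroxylates the fatty acid of ceramide, by 0.31. IPT1, which makes the most complex yeast sphingolipid, differed by 0.37 and lost its call against the 18 controls (limma adjusted p = 0.976). The serine palmitoyltransferase genes LCB1 and LCB2 had changes of 0.02 and 0.03, and the other ceramide synthase gene LAG1 of -0.13.

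Of 31 fatty acid and storage lipid genes 1 was higher (3.23%), near the 3.52% over all genes, and none was lower. It was PLB1, a phospholipase B gene (0.68), which lost the call in 4 of the 6 fits that left out an array. The elongase genes ELO1, ELO2 and ELO3, whose products extend fatty acids to very long chains, had changes of 0.01, -0.03 and 0.00. OLE1, the desaturase gene, had -0.12, and FAS1 and FAS2, the fatty acid synthase genes, had 0.04 and 0.06. Of 29 ergosterol genes 3 were higher (10.3%) and 1 was lower (3.45%), against 3.52% and 1.50% over all genes. ERG3, the C-5 sterol desaturase gene, read 12846, 11578 and 11358 with alachlor and 8448, 9406 and 8295 in the control (0.45). ERG26 and ERG27, of the C-4 demethylation complex, changed by 0.31 and 0.25. ERG8, the phosphomevalonate kinase gene, was lower by 0.19 on the log2 scale and lost the call without any 1 of the 6 arrays. ERG11 (0.05) and HMG1 (-0.02) were among the uncalled. With the 18 controls as 1 group 11 ergosterol genes were higher and none lower.

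The phosphate regulon moved in part. Of 17 measured targets 7 were higher and none lower, against 3.52% higher over all genes, and 16 of the 17 changes were above 0 (median 0.30). PHO5, the secreted acid phosphatase gene, read 3423, 2789 and 3015 with alachlor against 936, 1022 and 1120 in the control. That is 3.00-fold higher with no overlap (log2 change 1.58 ± 0.18 SE, limma adjusted p = 8.93e-07). PHO89, a sodium-coupled phosphate carrier gene, read 3824, 5073 and 5445 with alachlor against 2250, 1492 and 1918 in the control (1.34). PHM6, a target of unknown function, was at 1654 ± 13.9 with alachlor and 762 ± 74.8 in the control (1.12). The main high-affinity carrier PHO84 was bright in both groups, at 15181, 16841 and 18219 with alachlor against 14684, 10891 and 13525 in the control, and its change was 0.37 (limma adjusted p = 0.0173).

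The weaker members of that regulon depended on the arrays used. PHO84 lost its call in the 6 arrays alone (limma adjusted p = 0.151), and without IC20 array 2 (0.0618), IC20 array 3 (0.134) or control array 2 (0.209). GDE1, a glycerophosphodiesterase gene (0.41), and VTC1, of the polyphosphate polymerase (0.19), each lost the call in 4 of the 6 fits that left out an array. The list count was 4 without IC20 array 2 and 4 without control array 2, 8 without IC20 array 1, and 4 against the 18 controls as 1 group. PHO89 was not called against the 18 controls (limma adjusted p = 0.498), and its control means in the other 5 experiments ran from 1607 to 9117. The kinase inhibitor gene PHO81 (0.30) and SPL2 (0.30), also targets, were not called.

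The regulator genes of the phosphate circuit were not called: PHO4 had a change of -0.10, PHO80 of -0.03 and PHO85 of -0.02. Of the 16 genes for regulation and other phosphate handling, SYG1 was higher (0.27, lost without IC20 array 3 and without control array 2) and PHO3 was lower. PHO3, the acid phosphatase next to PHO5 that is repressed by thiamine and not by phosphate, read 3823, 3119 and 3053 with alachlor against 7400, 8088 and 7791 in the control. It was thus 2.34-fold lower where PHO5 was higher (log2 change -1.23, limma adjusted p = 5.81e-06). The other thiamine genes measured, among them THI4 (0.19) and THI7 (0.23), were not called.

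Among genes held down on good nitrogen sources, 1 of the transport genes and 7 of the degradative enzymes were higher. MEP2, the high-affinity ammonium permease gene, read 10778, 9903 and 10006 with alachlor against 4550, 4447 and 4502 in the control. It was 2.27-fold higher with tight groups (log2 change 1.18 ± 0.16 SE, limma adjusted p = 5.78e-06). MEP2 was the only 1 of 14 transport genes called (7.14%, against 3.52% higher over all genes). The general amino acid permease gene GAP1 had a change of 0.46 (limma adjusted p = 0.14) and the other ammonium permease genes MEP1 and MEP3 had 0.46 and 0.28. The median of the transport list was 0.28, with 12 of 14 changes above 0. The difference between the branches was not tested.

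Of 21 nitrogen-regulated enzymes 7 were higher (33.3%, against 3.52% over all genes) and none lower, with a median of 0.38. DAL3, which acts late in allantoin breakdown, was at 761, 697 and 646 with alachlor and at 316, 391 and 319 in the control (log2 change 1.04, limma adjusted p = 6.13e-06). UGA1, the aminobutyrate transaminase gene, was at 4774 ± 124 with alachlor against 3077 ± 144 in the control (0.63). CPS1, a vacuolar carboxypeptidase gene, differed by 0.35. The earlier allantoin genes DAL1 (0.54) and DAL2 (0.43) lost their calls against the 18 controls (limma adjusted p = 0.753 and 0.22), and GDH2, APE1 and DAL2 each lost theirs in 1 to 3 of the fits that left out an array. None of 14 nitrogen regulators was called in limma's fit of all arrays: GAT1 had a change of 0.63 (limma adjusted p = 0.45), DAL80 of 0.47 (0.2) and GLN3 of 0.24 (0.29). In the 6 arrays alone 2 of these regulators were higher. The arginine synthesis genes (8 measured) had none called, with changes from -0.11 to 0.23, and 2 of 42 genes of amino acid synthesis under Gcn4 were called higher, TRP2 (0.23) and SER3 (0.21). That share is near the 3.52% over all genes, and it was 0 without IC20 array 3 or without control array 2.

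Few cell wall genes were called, and those in both directions. YGP1, a secreted glycoprotein gene known to rise on nutrient limitation, read 15270, 13970 and 14835 with alachlor against 2536, 2821 and 3208 in the control, 5.17-fold higher (log2 change 2.37 ± 0.28 SE, limma adjusted p = 9.62e-07). CWP1, a mannoprotein gene of the outer wall layer, went the other way: 1307, 1267 and 1122 with alachlor against 3524, 3803 and 3931 in the control. The groups were far apart, and CWP1 was 3.05-fold lower (-1.61 ± 0.17 SE, limma adjusted p = 2.94e-07). These were the only 2 called genes of 37 wall proteins, 2.70% in each direction, near the 3.52% higher and 1.50% lower over all genes. The list median was 0.02, and CWP2 had a change of -0.01 and the abundant CCW12 of 0.02. PST1 and PIR3, wall proteins known to rise with wall damage, had changes of 0.41 and 0.22 and were not called (limma adjusted p = 0.21 and 0.79).

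WSC4, a member of the wall sensor family, read 238, 203 and 177 with alachlor against 649, 739 and 902 in the control and was 3.70-fold lower (log2 change -1.89, limma adjusted p = 8.3e-05). No other of the 20 wall sensor and signalling genes was called, so 5% were lower, against 1.50% over all genes. MID2 had a change of 0.26, SLG1 of -0.02, RLM1 of 0.19 and SLT2, the kinase at the end of the pathway, of 0.32 (limma adjusted p = 0.28). Of 49 genes for glucan, chitin and mannan 1 was higher (2.04%) and 3 were lower (6.12%), against 3.52% and 1.50% over all genes. KNH1, of beta-1,6-glucan assembly, was at 780, 742 and 783 with alachlor and at 1374, 1373 and 1339 in the control (-0.83); that control level lay under all control means of the other experiments (1995 to 3510). MNN1, the terminal mannosyltransferase gene, was at 1500 ± 120 with alachlor against 2426 ± 255 in the control (-0.69), and KTR2, of the same kind of enzyme, at 437 ± 4.68 against 642 ± 26.8 (-0.55). The higher gene was GSC2, the glucan synthase gene of stressed cells (0.44), which lost its call in 3 of the 6 fits that left out an array.

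**Figure D3:**
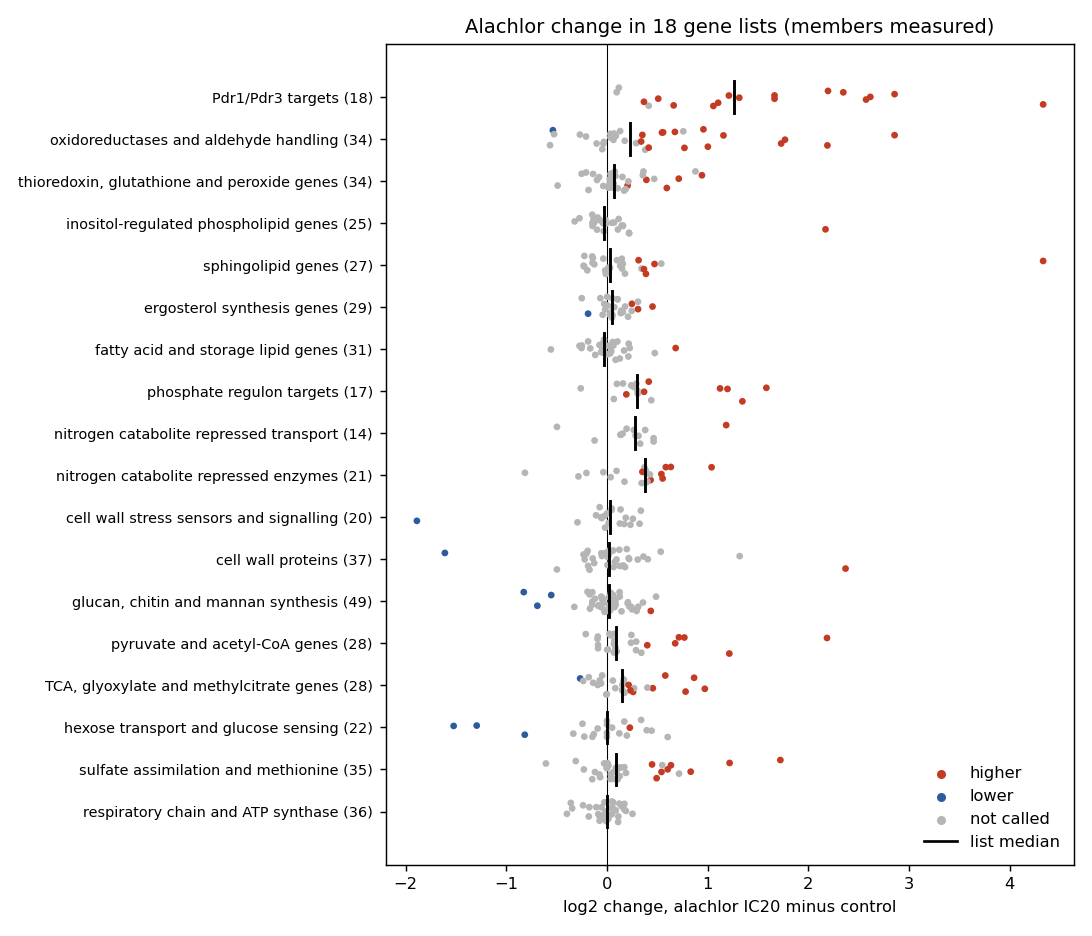
Log2 change, alachlor IC20 minus control, of every measured member of 18 gene lists, with the number measured beside each name; red and blue points are genes called higher and lower, and the black bar is the list median. The Pdr1/Pdr3 median is 1.26, the medians of the phosphate regulon targets and of both nitrogen catabolite repressed lists lie between 0.28 and 0.38, and the wall and respiratory medians are near 0.

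Genes of oxidoreductases and aldehyde handling were the other large set of higher genes. Of 34 measured 14 were higher (41.2%) and 1 was lower (2.94%), against 3.52% and 1.50% over all genes. The 14 include BNA1, which is also counted with the NAD genes below. GRE2, an NADPH-dependent ketoreductase and methylglyoxal reductase gene that is also a Pdr1/Pdr3 target, read 18233, 17734 and 18163 with alachlor against 2371, 2529 and 2580 in the control (log2 change 2.86 ± 0.08 SE, limma adjusted p = 3.39e-20). AAD6, of the aryl-alcohol dehydrogenase family, read 598, 647 and 617 with alachlor against 202, 172 and 188 in the control, 3.32-fold higher. Its relatives AAD10 and AAD14 had changes of 0.29 and 0.13, neither called. A further relative, counted among the 14 but not named here, was called higher and kept the call in each fit that left out an array. YPL088W, a putative enzyme of the same kind, was at 2274 ± 27.9 with alachlor against 649.4 ± 28.1 in the control (1.81). ADH7, an NADPH-dependent alcohol dehydrogenase gene, was at 281, 266 and 253 with alachlor against 154, 159 and 156 in the control (0.77), while its paralogue ADH6 had a change of -0.03.

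Nitroreductase-like FRM2 was at 857 ± 68.1 with alachlor against 251 ± 9.71 in the control (1.77), and its relative HBN1 was at 535 ± 52.5 with alachlor against 267 ± 21.9 in the control. BDH2 and its neighbour BDH1, the butanediol dehydrogenase gene, parted: BDH2 was higher (1499 ± 204 with alachlor, 328 ± 35.6 in the control, log2 change 2.19) and BDH1 was lower by 0.54 on the log2 scale. BDH1 lost its call without IC20 array 3 (limma adjusted p = 0.0819), control array 2 (0.0552) or control array 3 (0.06). The old yellow enzyme genes OYE2 and OYE3 changed by 0.41 and 0.67; OYE2 was not called against the 18 controls (limma adjusted p = 0.0824), and OYE3 lost its call in 4 of the fits that left out an array.

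Of 34 genes of the thioredoxin, glutathione and peroxide systems 5 were higher (14.7%, against 3.52% over all genes) and none lower. ECM4 and GTT2, both glutathione transferase genes, were higher by 0.94 and 0.71 (ECM4 1015 ± 95.1 with alachlor, 527 ± 35.8 in the control). The mitochondrial peroxiredoxin gene PRX1 was higher by 0.59. The other 2 were GPX2 (0.39), which lost its call in all 6 fits without 1 array, and TRX2 (0.20), which lost it without IC20 array 1 or control array 3, where 3 members were higher. The glutathione synthesis gene GSH1 (0.04), thioredoxin reductase TRR1 (-0.04), peroxiredoxin TSA1 (0.07) and catalase CTT1 (0.19) were uncalled. Of 34 general stress genes 3 were higher (8.82%) and 1 was lower (2.94%), against 3.52% and 1.50% over all genes. The lower gene was MSN4 (-0.67, not called in the 6 arrays alone, limma adjusted p = 0.0766). Besides YGP1 the higher ones were GPG1 (0.69) and NTH2 (0.33), each called in 1 of the 6 fits without 1 array, so that YGP1 alone was higher without IC20 array 1, IC20 array 2, control array 1 or control array 2. HSP12 had a change of 0.72 (limma adjusted p = 0.091), HSP26 of -0.10 and HSP104 of 0.31. HSP30, of the plasma membrane, was at 334.6 ± 24.9 with alachlor against 298 ± 9.24 in the control (0.16).

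Of 28 genes of pyruvate and acetyl-CoA 6 were higher (21.4%, against 3.52% over all genes) and none lower. The higher count was 4 without IC20 array 3 or without control array 2. MPC3, the pyruvate carrier subunit used in respiring cells, read 4448, 4254 and 3932 with alachlor against 889, 916 and 972 in the control, 4.55-fold higher (log2 change 2.19 ± 0.27 SE, limma adjusted p = 2.4e-06). The other subunits MPC1 and MPC2 had changes of -0.09 and 0.07. CRC1, the mitochondrial carnitine carrier gene, was at 560 ± 3.83 with alachlor against 241 ± 12.4 in the control (1.22), and YAT2, a carnitine acetyltransferase gene, was higher by 0.77. CYB2, the lactate dehydrogenase gene, was higher by 0.71. PYC1 (0.68) and LPD1 (0.40) lost their calls in 2 and 3 fits that left out an array.

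Of the 28 genes of the TCA, glyoxylate and methylcitrate routes 8 were higher (28.6%) and 1 lower (3.57%), against 3.52% and 1.50% over all genes. In the 6 fits that left out an array 6 or 7 were higher. PCK1 lost its call in 5 of these fits, CIT2 in 3, and MDH2 and the lower gene MDH3 in 2 each. Among the higher ones the 3 largest changes were in PDH1, CIT3 and ICL2, of the methylcitrate cycle, which handles propionyl-CoA. PDH1 was at 1374, 1680 and 1481 with alachlor against 806, 689 and 816 in the control (log2 change 0.97). CIT3 was at 234 ± 13.8 with alachlor against 128 ± 4.14 in the control (0.87), and ICL2 at 1537 ± 110 against 894 ± 43.8 (0.78). CIT1, the main mitochondrial citrate synthase gene, was higher by 0.46. The glyoxylate genes ICL1 (0.17) and MLS1 (-0.24) were not called. None of 36 respiratory chain and ATP synthase genes was called, nor was HAP4, their activator (-0.17), although in the 6 arrays alone 2 of that list were lower.

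EEB1, which makes ethyl esters of medium-chain fatty acids, had one of the deepest falls: 1082, 1152 and 1137 with alachlor against 4308, 3960 and 4107 in the control, 3.67-fold lower (log2 change -1.88, limma adjusted p = 2.4e-06). Its paralogue EHT1 had a change of 0.22. Among 22 genes of hexose transport and glucose sensing 3 were lower (13.6%, against 1.50% over all genes). The 1 higher gene made 4.5%, near the 3.52% over all genes. HXT4 read 996, 1164 and 1088 with alachlor against 3487, 2600 and 3297 in the control (-1.52), though all control means of the other experiments were higher still (6817 to 12652). HXT2 read 5630, 5803 and 5454 with alachlor against 10415, 9382 and 9947 in the control (-0.82). The low-affinity carrier HXT3, bright in both groups, was higher by 0.23 and lost its call against the 18 controls (limma adjusted p = 0.848). Sensors SNF3 and RGT2 (0.20 and 0.17) and repressor MIG1 (-0.33) were uncalled. In glycolysis TDH1 was higher by 0.53 (14981 ± 278 with alachlor, 10389 ± 314 in the control) and lost its call against the 18 controls (limma adjusted p = 0.109). RKI1, of the pentose phosphate pathway, was lower by 0.32 on the log2 scale.

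Sulfur genes rose in a subset. Of 35 genes for sulfate assimilation and methionine 8 were higher (22.9%, against 3.52% over all genes) and none lower. MET28, a regulator of the pathway, was at 576, 548 and 566 with alachlor against 159, 187 and 167 in the control (log2 change 1.72, limma adjusted p = 3.84e-11); its control mean exceeded those of the other experiments (35.3 to 82.6). STR3, which splits cystathionine, was higher by 1.22, MET2 by 0.83 and MET16 by 0.64. MET10 (0.60), MET5 (0.54), STR2 (0.49) and MET14 (0.45) each lost the call in 2 to 6 of the fits that left out an array, so that 4 members were higher without IC20 array 3 and 4 without control array 2. The permease gene MUP1 (0.17), the ATP sulfurylase gene MET3 (-0.07) and the cysteine gene CYS3 (0.01) were uncalled.

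Of 25 pyridoxine, thiamine and NAD genes 6 were higher (24%) and 1, PHO3, was lower (4%), against 3.52% and 1.50% over all genes. Of the 25 changes 22 were above 0 (median 0.17). The higher count was 3 without IC20 array 1 or control array 1. BNA2, the first enzyme of NAD synthesis from tryptophan, was at 646 ± 91.4 with alachlor against 227 ± 16.0 in the control (log2 change 1.50, limma adjusted p = 1.33e-08), and BNA1, a later step, was at 10061 ± 81.3 against 7951 ± 40.9 (0.34). The vitamin B6 gene SNO1 was higher by 0.59, a call lost in 4 of the 6 fits that left out an array, and SNZ1 had a change of 0.22 with no call. SNZ3 was also higher, a call kept in each of those 6 fits. BNA6 and PDX3, the remaining higher genes of the list, each lost the call in 2 of them. FTR1, the high-affinity iron permease gene, was at 3334, 2944 and 2884 with alachlor against 6033, 6549 and 6322 in the control (-1.05), while FET3, its partner oxidase gene, had a change of -0.20 (limma adjusted p = 0.6). FET4, the low-affinity iron carrier gene, was lower by 0.85 on the log2 scale, a call that no fit leaving out an array kept. HMX1, ARN1 and FRE6 were higher, but in the fits without IC20 array 2, IC20 array 3, control array 2 or control array 3 none of the iron, copper and zinc genes was higher.

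Protein turnover showed isolated changes. ATG40, the receptor for autophagy of the endoplasmic reticulum, read 2801, 3180 and 2981 with alachlor against 899, 852 and 988 in the control, 3.27-fold higher (log2 change 1.71, limma adjusted p = 1.23e-08). ATG40 was the only called gene of 28 for folding and degradation in that compartment, and this 3.57% is near the 3.52% higher over all genes. KAR2, the main chaperone there, had a change of -0.19 and HAC1 of 0.14. RPN4, the activator of proteasome genes, was at 4549 ± 493 with alachlor against 2057 ± 320 in the control (1.15), a call narrowly lost against the 18 controls (limma adjusted p = 0.0531). None of the proteasome subunits on that list was called; besides RPN4 the list gave UBI4, the polyubiquitin gene (0.60), whose call was lost against the 18 controls (limma adjusted p = 0.146) and in 5 of the 6 fits that left out an array. Their list of 35 had 5.71% higher, against 3.52% over all genes, and a median of -0.05.

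Some of the deepest falls lay outside these lists. YBL029W, an open reading frame without a known function, read 128.4, 107.7 and 104.1 with alachlor against 487.1, 532.7 and 512.1 in the control (log2 change -2.18, limma adjusted p = 4.34e-09). RPI1, a gene known for damping Ras signalling, was at 388.8 ± 7.18 with alachlor against 990.2 ± 190.9 in the control (-1.33). BIO4, of biotin synthesis, was at 384.4, 396.9 and 326.1 with alachlor against 731.4, 767.6 and 699.4 in the control (-0.99). ICS2 was lower by 0.96 on the log2 scale. PNS1, a membrane protein gene, was at 1058 ± 75.6 with alachlor against 2120 ± 226.7 in the control and lost its call against the 18 controls (limma adjusted p = 0.109). The aquaporin gene AQY1 (-0.88) lost it there too (limma adjusted p = 0.233) and in every fit that left out an array.

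Which changes were larger or smaller with alachlor than with the other pesticides was tested gene by gene, as the alachlor change minus the mean change of the other 5. By this test 13 genes were higher (0.239% of all) and 5 were lower (0.0918%), together 0.330%. Without 1 of the 6 alachlor arrays the counts were 7 to 11 and 1 to 3, the lowest being 7 without IC20 array 1 or control array 2, and 1 without IC20 array 3, control array 1 or control array 3. AAD6, GRE2, PHO5, PHO89 and CWP1 kept the call in all 6 of those fits. AAD6 led, with a difference of 1.59 (limma adjusted p = 3.56e-07): its change was 1.73 with alachlor, and -0.06 with S-metolachlor, 0.08 with diuron, 0.20 with MCPA-ME, -0.09 with pyrimethanil and 0.59 with carbofuran. ADH7 was called with alachlor (0.77) and with none of the other 5, whose changes ran from -0.20 to 0.15 (difference 0.77, limma adjusted p = 0.0186). The call of that difference ended in each fit without 1 array (limma adjusted p of 0.0557 to 0.0845). GRE2 (difference 0.60), FRM2 (1.09), the oxidoreductase-like YML131W (0.74) and YLL056C (0.70) also stood above the mean of the others, the last 3 in 3, 2 and 3 of the 6 fits without 1 array. Of the 34 genes of oxidoreductases and aldehyde handling 5 were among the 13.

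Phosphate and inositol genes were the other members of that set. PHO89 (difference 1.42, limma adjusted p = 5.9e-05) was higher with alachlor, S-metolachlor (1.17) and carbofuran (1.25), and lower with MCPA-ME (-1.17) and pyrimethanil (-1.44). PHO5 (difference 1.24) was higher with alachlor, S-metolachlor (0.93) and diuron (1.93), and lower with pyrimethanil (-0.91). INO1 (difference 1.25, limma adjusted p = 0.0494) was about as high with S-metolachlor (2.23) and MCPA-ME (2.45) as with alachlor (2.17), with pyrimethanil (-0.81) and carbofuran (-0.51) at the other end. The INO1 difference was called in none of the 6 fits without 1 array (limma adjusted p of 0.0743 to 0.221). TPO4 (difference 1.11) and YOR1 (0.69) complete the named genes, called in 1 and 4 of those fits. In each of these the difference is from a mean, and at least 1 other pesticide raised the gene as well.

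Of the genes lower than the mean of the others, CWP1 stood apart (difference -1.24, limma adjusted p = 0.000683). It fell with alachlor and with S-metolachlor (-1.39), and its changes with the remaining 4 lay between -0.25 and 0.20 with no call. SPE3, the spermidine synthase gene, was lower by 0.26 on the log2 scale with alachlor (difference -0.23). The sterol genes ERG28 and ERG25 and the deubiquitylase gene OTU1 were low in this test without changing with alachlor (0.11, 0.06 and -0.01), the other pesticides having raised them by means of 0.49, 0.34 and 0.37. The differences of SPE3, ERG28 and OTU1 were called in none of the 6 fits without 1 array, and that of ERG25 in 1, the fit without IC20 array 1.

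**Figure D4:**
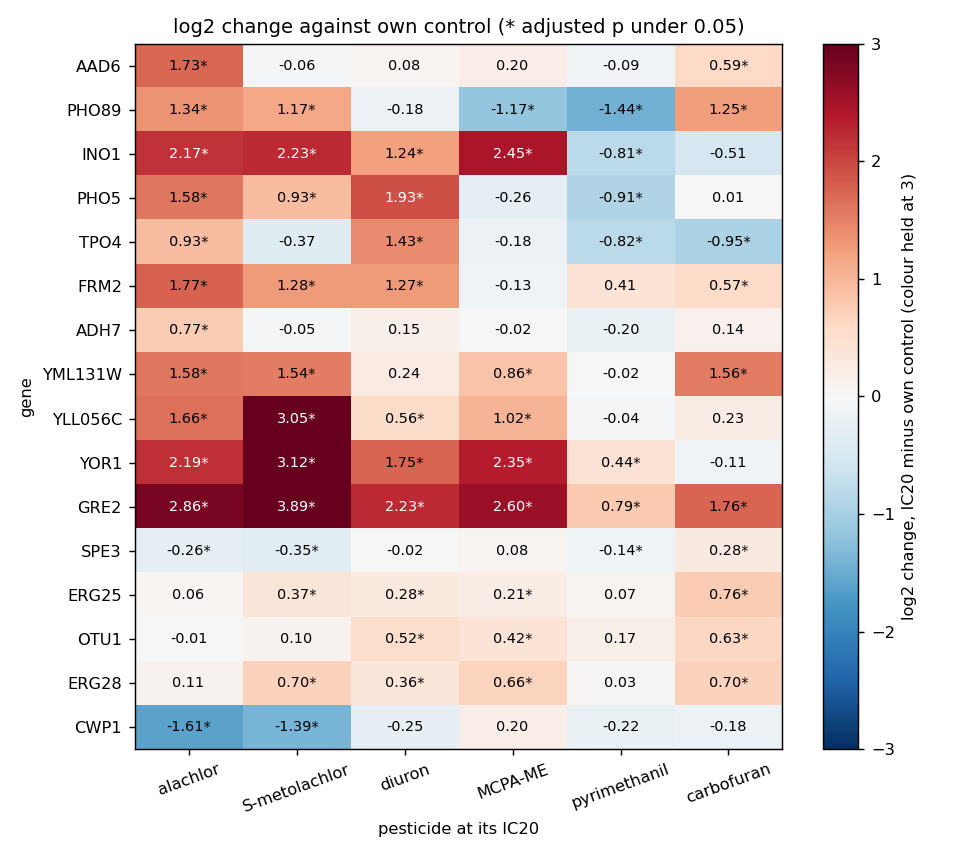
Log2 change against its own control (IC20 minus control, colour and printed value) of 16 genes called in the test of alachlor against the mean of the other 5, one column per pesticide and alachlor at the left. Asterisks mark an adjusted p under 0.05 within that pesticide; the rows of AAD6 and ADH7 are coloured mainly under alachlor, and CWP1 is blue under alachlor and S-metolachlor.

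S-metolachlor is the other chloroacetanilide of the series. It was given at 220 mg/L and alachlor at 200 mg/L, each described as its IC20, so values are set side by side and the difference between these compounds is not tested. Of the 192 genes higher with alachlor 151 were also called higher with S-metolachlor (78.7% of the alachlor genes and 27.5% of the 549 for S-metolachlor, itself 10.1% of all genes). Of the 82 lower genes 56 were shared (68.3% of the alachlor genes and 7.16% of the 782 for S-metolachlor, 14.4% of all genes). Only 2 of the higher genes and none of the lower ones were called in the opposite direction. With the other pesticides the shared part of the 192 was 69.8% for MCPA-ME, 68.8% for diuron, 51.6% for carbofuran and 49.0% for pyrimethanil. Of the 82 lower genes it was 63.4% for MCPA-ME, 43.9% for diuron, 35.4% for pyrimethanil and 24.4% for carbofuran. Opposite calls were most frequent with carbofuran, for 21 of the higher and 10 of the lower genes. Called higher among all genes were 9.97% with MCPA-ME, 8.52% with diuron, 18.4% with carbofuran and 6.39% with pyrimethanil, and called lower were 8.61% with MCPA-ME, 5.84% with diuron, 23.7% with carbofuran and 9.71% with pyrimethanil.

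Gene by gene the changes with alachlor and S-metolachlor were 4.33 and 5.23 for RSB1, 2.19 and 3.12 for YOR1, 1.06 and 1.55 for PDR5, and 2.62 and 4.99 for CIS1. For INO1 they were 2.17 and 2.23, for YGP1 2.37 and 2.31, and for EEB1 -1.88 and -1.62. WSC4 had -1.89 and -3.75, MPC3 2.19 and 3.85, DAL3 1.04 and 2.68, and MEP2 1.18 and 1.94. Among the reductase, dehydrogenase and glutathione transferase genes, AAD6 had 1.73 and -0.06, ADH7 0.77 and -0.05, GTT2 0.71 and 0.04, and OYE3 0.67 and 0.04, the second value being uncalled in all 4.

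Counted over all 5 other pesticides, 35 of the 192 higher genes were called higher with each of them and 8 with none. Of the 82 lower genes 5 were called lower with each and 8 with none. GRE2 and MET28 are among the genes higher with all 6, and YBL029W and MNN1 among those lower with all 6. RSB1, higher with 4 others (3.28 to 5.40), was lower with carbofuran (-0.60).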

How the data were processed

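Gene expression was measured on Affymetrix Yeast Genome 2.0 arrays, and the 6 alachlor arrays were analysed within the 36 of the series. Per the labels' protocols, total RNA came from a hot phenol extraction and was amplified by in vitro transcription. The authors deposited linear intensities per probe set (1 to 39731.7) in the series value table. Affymetrix Expression Console is named in the submitters' processing notes; its version and the normalization are not stated there, and the array medians (1319.6 to 1511.4) were close, so the deposited intensities were not normalized again. A scaling to equal medians by the authors would hide a change in total RNA.

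Of 5716 probe sets 5498 had 1 gene in GEO's platform annotation and 218 had none, and 12 symbols were updated through RefSeq gene IDs. For the 47 genes with more than 1 probe set, the probe set with the highest mean intensity was kept and the rest were dropped. This left 5449 genes. The 120 genes whose kept probe set may match several genes were tested and counted but not named. Intensities were raised to a floor of 32 (1.78% of values) and taken to log2. The fit, by limma 3.58.1 under R 4.3.3, took in the 36 arrays with a mean for each of the 12 groups (24 residual and 25.8 moderated degrees of freedom), and was checked on simulated data. Contrasts were alachlor IC20 minus control, and this change minus the mean of the other 5. Adjusted p-values are Benjamini-Hochberg over all genes per contrast. The number of arrays, 3 per group, limits the precision.

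Named genes are the 15 largest called changes in each direction whose groups do not overlap, the 10 largest called differences from the other 5 in each direction, and members of 33 gene lists. The comparison, lists and rules were chosen with earlier results of these data known, so list counts are no independent support. No set test was run. Replicate numbers did not pair the arrays. Alternatives were other normalizations, floors, array subsets and variance models, a replicate block, and leaving out each array.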

Additional observations from a re-analysis of the deposited data

Results flagged for a closer look

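The alachlor change differed from the mean change of the other 5 pesticides in 13 genes upward and 5 downward, by limma's test of that difference. Upward the named differences on the log2 scale were 1.59 for AAD6, 1.42 for PHO89, 1.25 for INO1, 1.24 for PHO5, 1.11 for TPO4, 1.09 for FRM2, 0.77 for ADH7, 0.74 for YML131W, 0.70 for YLL056C and 0.69 for YOR1. Downward they were -1.24 for CWP1, -0.38 for ERG28, -0.38 for OTU1, -0.28 for ERG25 and -0.23 for SPE3.

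Of the 218 probe sets without a gene name in the annotation used here, 9 were higher and 2 were lower with alachlor. These counts are near the shares over all genes tested, 3.52% higher and 1.50% lower. The probe set 1776865_at had the largest change on the array, with intensities of 8499, 8392 and 8266 with alachlor against 112.9, 114.0 and 125.1 in the control. This was 71.5-fold higher (log2 change 6.16, limma adjusted p = 3.54e-17). Its change was 4.18 with S-metolachlor, 2.60 with MCPA-ME, 1.25 with diuron, 0.51 with pyrimethanil and 0.35 with carbofuran, the last 2 uncalled. The other called ones lay between -0.99 and 2.18.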

How the results depend on the processing

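Against the main counts of 192 higher and 82 lower genes, the 6 alachlor arrays alone gave 308 and 176, the 18 controls as 1 group 616 and 381, and array weights 556 and 421 (56.9% of calls higher, against 70.1%). Dropping 2 outlying arrays of the MCPA-ME and carbofuran experiments gave 173 lower. Leaving out 1 alachlor array gave 115 to 172 higher and 42 to 80 lower. The share of calls that were higher was 61.8% after quantile normalization, 61.8% with the 18 controls, 63.6% in the 6 arrays and 64.4% after median centring. For the difference from the other 5 pesticides (13 and 5), the counts were 536 and 170 with the 18 controls, 443 and 282 with array weights, 83 and 38 without those 2 outlying arrays, 20 and 15 at a floor of 100, and 7 to 11 and 1 to 3 without 1 array. There the lower count was 17 after quantile normalization, 17 after median centring, 1 at a floor of 1 and 2 without the dimmest 25% of genes. Replicate numbers did not pair the arrays: same-numbered deviations correlated at -0.71, -0.16 and 0.21, and IC20 array 1 correlated best with control 2 (0.73). The replicate block moved the difference counts to 20 and 12 and ended the call of 8 of 128 named genes. The Pdr1/Pdr3 median of 1.26 was 1.24 after median centring, 1.16 without the dimmest 25%, 1.42 with the 18 controls and 1.24 to 1.29 without 1 array. With the 18 controls the median was 0.14 for phosphate targets, 0.43 for nitrogen transport (0.22 with array weights), 0.24 for nitrogen enzymes and 0.08 for wall proteins. Without 1 array these 4 medians ran over 0.24 to 0.35, 0.20 to 0.32, 0.33 to 0.42 and 0.01 to 0.04. SER3 turned to -0.04 with the 18 controls. Named genes that lost their call numbered 25 with the 18 controls, 17 after median centring, 13 in the 6 arrays, and 20 to 41 without 1 array. The cause of these shifts was not tested.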

Other observations

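Biotin genes moved in both directions, a set gathered after its values were seen. Of 12 measured, 4 were lower, against 1.50% over all genes: BIO4 (-0.99), VHT1, the biotin carrier gene (-0.69), BIO3 (-0.61) and BIO5 (-0.57). VHT1 was at 2448 ± 217.8 with alachlor against 3957 ± 497 in the control. VHR1, an activator of VHT1 and BIO5, was higher, at 4109 ± 426.3 with alachlor against 2092 ± 240.5 in the control (0.98). The biotin-dependent PYC1 was also higher (0.68), while ACC1, the biotin-dependent acetyl-CoA carboxylase gene, had a change of 0.13 with no call. Against the 18 controls VHR1, VHT1 and BIO3 were not called by limma (adjusted p = 0.290, 0.178 and 0.103), and in the 6 arrays alone BIO3 and BIO5 were not (0.0627 and 0.0856).

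Pyrimidine genes were higher in 4 of 17 cases and lower in none, in cells that lack URA3 (also gathered after the values were seen). Over all genes 3.52% were higher. URA2, of the first steps of synthesis, was at 21157, 21193 and 22507 with alachlor against 16695, 15457 and 15477 in the control (0.45). The uridine permease gene FUI1 differed by 0.50, URH1, which splits uridine, by 0.48 and URA10 by 0.47. Mitochondrial ribosomal protein and import genes were taken by their symbols, also after the values were seen. Of 66 ribosomal protein genes 61 changes were under 0 (median -0.16) and 4 were called lower, and of 27 import genes 25 changes were under 0 (median -0.12) and 5 were called lower. Over all genes 47.2% of changes were under 0 and 1.50% were called lower, and no test was made of these sets. STE3, a receptor gene of the opposite mating type, was dim but higher, at 161 ± 13.4 with alachlor against 91.4 ± 6.92 in the control (0.81).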
